A study of Mus musculus with 10 samples.

Results

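Messenger RNA of mock T cells was set against that of mock B cells, both primary cells from mouse spleen, to describe how the programmes of these lymphocytes differ beyond the receptors and coreceptors that define them. The comparison used the 4 deposited columns labelled mock, 2 for T cells and 2 for B cells, of the 10 columns in the series. The 2 columns of a group matched 1 library divided in a fixed proportion, to within 1 read for every gene with reads. They were therefore summed, which left 1 mock T cell library of 71858511 reads and 1 mock B cell library of 33842813 reads. The other libraries of the series carried a guide RNA of a CRISPR interference experiment, in which a guide directs a repressor to a promoter. They were 1 T cell library with a guide against promoter P1 of Pou2f1 (sgRNA-P1) and 2 B cell libraries, 1 with that guide and 1 with a guide against promoter P2 (sgRNA-P2). Their values are given beside the mock values as further libraries of the same cell type, each from cells that carried a guide. The labels name the mock cells by the genotype Mock, call the cells selected, and give no strain, age, sex, selection markers, culture time or number of animals, and whether the mock cells carried the repressor is not given in the sources used here. With 1 library per group there is no replicate check and no p-value. The intervals given are 95% counting intervals and cover counting error only.

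T cells recognise peptides held by major histocompatibility complex (MHC) proteins, through a receptor that signals by way of the kinases Lck and ZAP-70 and the adaptors LAT and SLP-76. B cells bind native antigen through surface immunoglobulin, which signals by way of Lyn, SYK, BTK and the adaptor BLNK, and they can take up antigen and present it on MHC class II. Much of the machinery exists as related genes of which each lineage uses its own member. In the spleen, T cells recirculate through the white pulp, and B cells lie in follicles or in the marginal zone, where they meet blood-borne microbes.

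The labels were checked against marker lists. All 21 T cell identity genes were 2-fold or more higher in mock T cells, where they summed to 11190 CPM (reads of a gene scaled to the size of the library), against 232 CPM in mock B cells. All 21 B cell identity genes were 2-fold or more higher in mock B cells, and summed to 701 CPM in the mock T library and 40370 CPM in the mock B library. Trbc2 had no read in mock B cells and is uncertain, since it shares sequence with Trbc1. Cd74, the class II invariant chain, stood at 8.96 CPM in the mock T library and 8197 CPM in the mock B library. Of the natural killer (NK) markers, 8 of 16 passed the level filter described next, all of them higher in mock T cells. The list summed to 243 CPM in the mock T library and 8.66 CPM in the mock B library. Of the 16 genes, 5 were under 1 CPM in mock T cells and 14 in mock B cells. The 8 markers that passed had a median log2 difference, mock T over mock B, of 5.97. The NK receptor genes Ncr1 (0.222 and 0.0887 CPM) and Klra8 (0.0971 and 0 CPM, uncertain), named after their values were seen, were below the filter in both. Whether NK cells were present was not tested. The 27 killer cell lectin-like receptor genes (Klr) summed to 91.7 CPM in the mock T library and 8.42 CPM in the mock B library. Neutrophil markers summed to 0.458 CPM in the mock T library and 1.24 CPM in the mock B library, with 4 and 5 of the 12 genes at 0. Monocyte and macrophage markers summed to 12.3 and 25.2 CPM, with Csf1r at 0.291 and 1.04 CPM. Plasma cell markers summed to 120 CPM in the mock T library and 790 CPM in the mock B library, where Jchain stood at 106 CPM, Igha at 62.6 CPM and Sdc1 at 19.7 CPM. The dendritic, erythroid, platelet and stromal lists summed to 89.7, 111, 173 and 239 CPM in mock T cells, against 32.6, 143, 48.8 and 335 CPM in mock B cells. Most of each sum came from few genes (Ccr9 and Bst2, Tfrc, Itgb3, Pecam1), and which cells these reads came from was not tested. Of the tested members, 1 of 2 dendritic, 1 of 3 erythroid, 2 of 2 platelet and 0 of 1 stromal genes were higher in mock T cells. None was higher in mock B cells. In libraries made from many cells, fewer cells of a type and less RNA per cell cannot be told apart. The part that these minor populations play in the differences below was not tested.

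Of the genes in the table, 10804 reached 5 CPM in at least 1 of the mock libraries. A gene was counted as higher in one cell type when its scaled level differed 2-fold or more there. By this rule 1332 genes (12.3%) were higher in mock T cells and 1319 (12.2%) were higher in mock B cells, and these shares are the background for every count of list members below. The median log2 difference of all 10804 genes, mock T over mock B, was 0.02. Differences were often large where they existed. Of the genes higher in mock T cells, 555 differed 8-fold or more and 363 differed 32-fold or more. Among those higher in mock B cells the same limits took 578 and 414 genes. No read was found in mock B cells for 125 of the genes higher in mock T cells, and none in mock T cells for 127 of those higher in mock B cells. At the other end, 63.0% of all tested genes lay within 1.5-fold of each other. Genes higher in mock T cells held 12.8% of that library's reads, and genes higher in mock B cells held 18.02% of theirs, of which 22.4% fell in the B cell identity genes. Long noncoding RNAs passed 2-fold more often than protein-coding genes: 76 higher in mock T cells and 107 higher in mock B cells of 441, or 41.5%, against 22.4% of 9593 protein-coding genes. The classes were not matched for level. In a chosen list of long noncoding RNAs and microRNA hosts, 3 of 19 tested genes were higher in mock B cells (15.8%) and 0 in mock T cells.

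**Figure D1:**
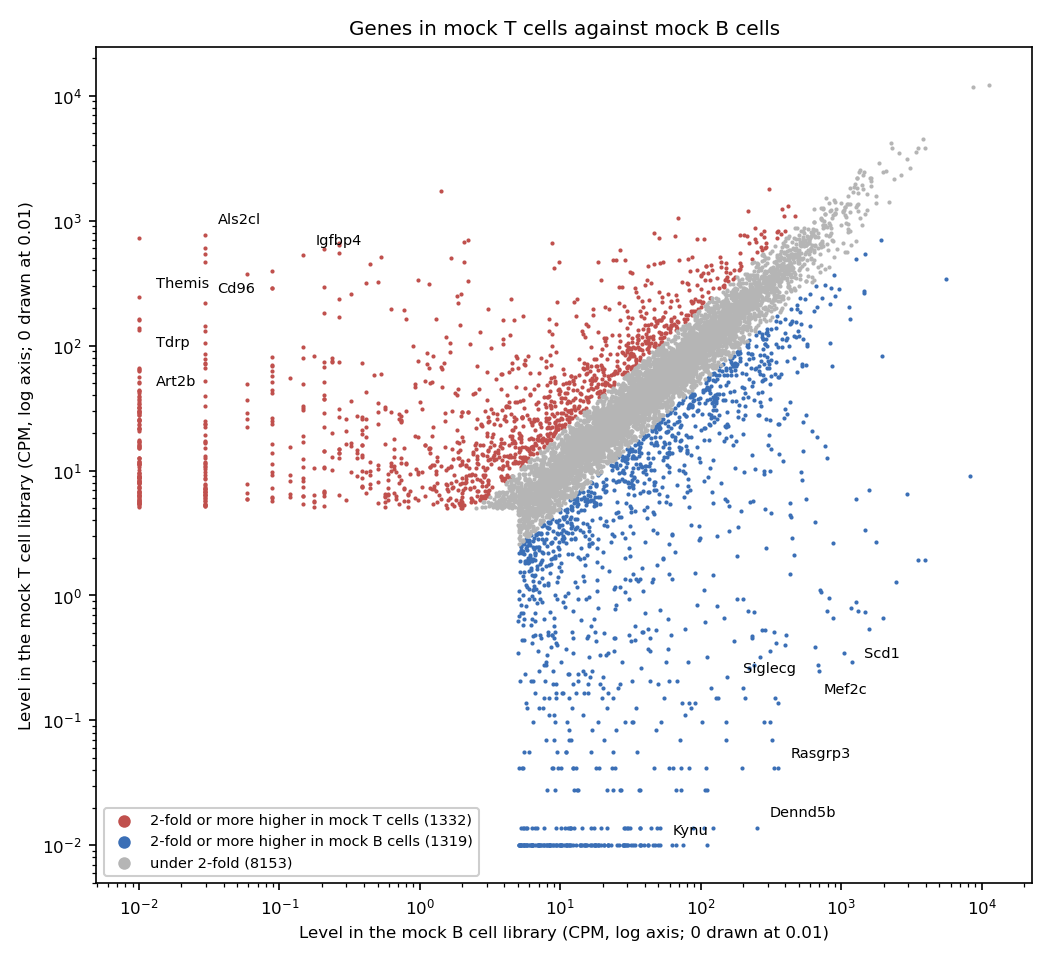
Level of each of the 10804 tested genes in the mock T cell library (vertical axis) and the mock B cell library (horizontal axis), in CPM on log axes with 0 drawn at 0.01. Red points are the 1332 genes 2-fold or more higher in mock T cells, blue points the 1319 higher in mock B cells and grey points the rest, and both coloured sets reach the bottom of the scale in the other library.

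In the sgRNA-P1 libraries of the same cell types, 1254 of the 1332 genes were again 2-fold or more higher in T cells and 1260 of the 1319 again 2-fold or more higher in B cells. For 1331 and 1316 genes the T cell libraries (mock and sgRNA-P1) and the B cell libraries (mock, sgRNA-P1 and sgRNA-P2) did not overlap, but such separation was found for 82.7% of all tested genes and says little by itself. The guided libraries of a cell type also need not come from other animals.

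Outside the identity lists, the genes with the largest differences towards T cells were a mixture of receptor signalling parts, surface proteins and genes of less studied function. Als2cl (mm39, chr9:110708938-110729598), was the most different of all, with 771 and 755 CPM in the mock and sgRNA-P1 T cell libraries, against 0.0296, 0.0623 and 0.107 CPM in the mock, sgRNA-P1 and sgRNA-P2 B cell libraries. The mock libraries held 55615 reads and 1 read of it, a log2 difference of 13.67 with a counting interval from 11.79 upward. Themis (chr10:28544356-28759814), a regulator of T cell receptor signalling needed in thymocyte development, had 246 CPM in both T cell libraries, against 0, 0.0208 and 0.107 CPM in the B cell libraries. Its level in mock T cells was 2770-fold the floor of 3 reads set for the mock B library, where no read was found. The counting interval of its log2 difference ran from 10.14 upward. Both genes were high in every T cell library and near 0 in every B cell library.

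Among the other genes at the T cell end, Ctsw (cathepsin W, a protease of cytotoxic lymphocytes), Ikzf2 (Helios), Trat1 (a transmembrane adaptor of the T cell receptor) and Tdrp had 162, 160, 137 and 133 CPM in mock T cells and no read in mock B cells. Tdrp was also without a read in both guided B cell libraries, against 128 CPM in T cells with sgRNA-P1. Igfbp4, an insulin-like growth factor binding protein, reached 530 CPM in the mock T library, against 0.148 CPM in the mock B library, a log2 difference of 11.55 (10.28 to 15.18). Cd96 and Cd226, which compete for shared ligands as an inhibitory and an activating receptor, stood at 219 and 132 CPM in mock T cells and at 1 read each in mock B cells. Ubash3a, a phosphatase-like suppressor of receptor signalling, likewise had 1 read in mock B cells, against 144 CPM in mock T cells. Gprin3 and Art2b, an ADP-ribosyltransferase on the T cell surface, had 66.0 and 64.9 CPM in mock T cells and none in mock B cells.

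At the B cell end, Dennd5b, an exchange factor for Rab GTPases (chr6:148889569-149003178), had 0.0139 CPM in the mock T library and 252 CPM in the mock B library, or 1 read against 8521 reads. Rasgrp3, an exchange factor that activates Ras (chr17:75742891-75836049), had 0.0416 and 0.0501 CPM in the mock and sgRNA-P1 T cell libraries, against 352, 383 and 376 CPM in the mock, sgRNA-P1 and sgRNA-P2 B cell libraries. Scd1, the stearoyl-CoA desaturase that makes monounsaturated fatty acids (chr19:44382894-44396318), was the most abundant gene of this end, at 0.291 and 0.376 CPM in T cells and at 1189, 1239 and 1152 CPM in B cells. Its log2 difference was -11.93 (-13.13 to -11.19). Rasgrp3 and Scd1 were low in both T cell libraries and high in all 3 B cell libraries.

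Kynu, a hydrolase that degrades tryptophan through kynurenine, had no read in mock T cells, against 51.6 CPM in mock B cells. That is 1239-fold the floor of the mock T library, and the counting interval of the log2 difference ran from -8.97 downward. Kmo, a monooxygenase of the same route, stood at 0.472 CPM in the mock T library and 232 CPM in the mock B library. Cacna1e, a subunit of a voltage-gated calcium channel best known from neurons (chr1:154266477-154760247), had 0.0416 CPM in the mock T library and 196 CPM in the mock B library. Cyp4f18, a cytochrome P450 that acts on leukotrienes in mice, had 0.0139 and 123 CPM. S1pr3, a sphingosine-1-phosphate receptor, and Klhl14 had no read in mock T cells, against 42.0 and 39.2 CPM in mock B cells. Myof (myoferlin, a membrane repair protein), Mef2c (a transcription factor of B cell activation) and Siglecg (an inhibitory lectin that binds sialic acid) stood at 0.0139, 0.250 and 0.277 CPM in mock T cells, against 88.6, 695 and 679 CPM in mock B cells. Mir5107, at 0 CPM in the mock T library and 62.1 CPM in the mock B library, lies within Cd74, so that reads of Cd74 cannot be told from its own.

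**Figure D2:**
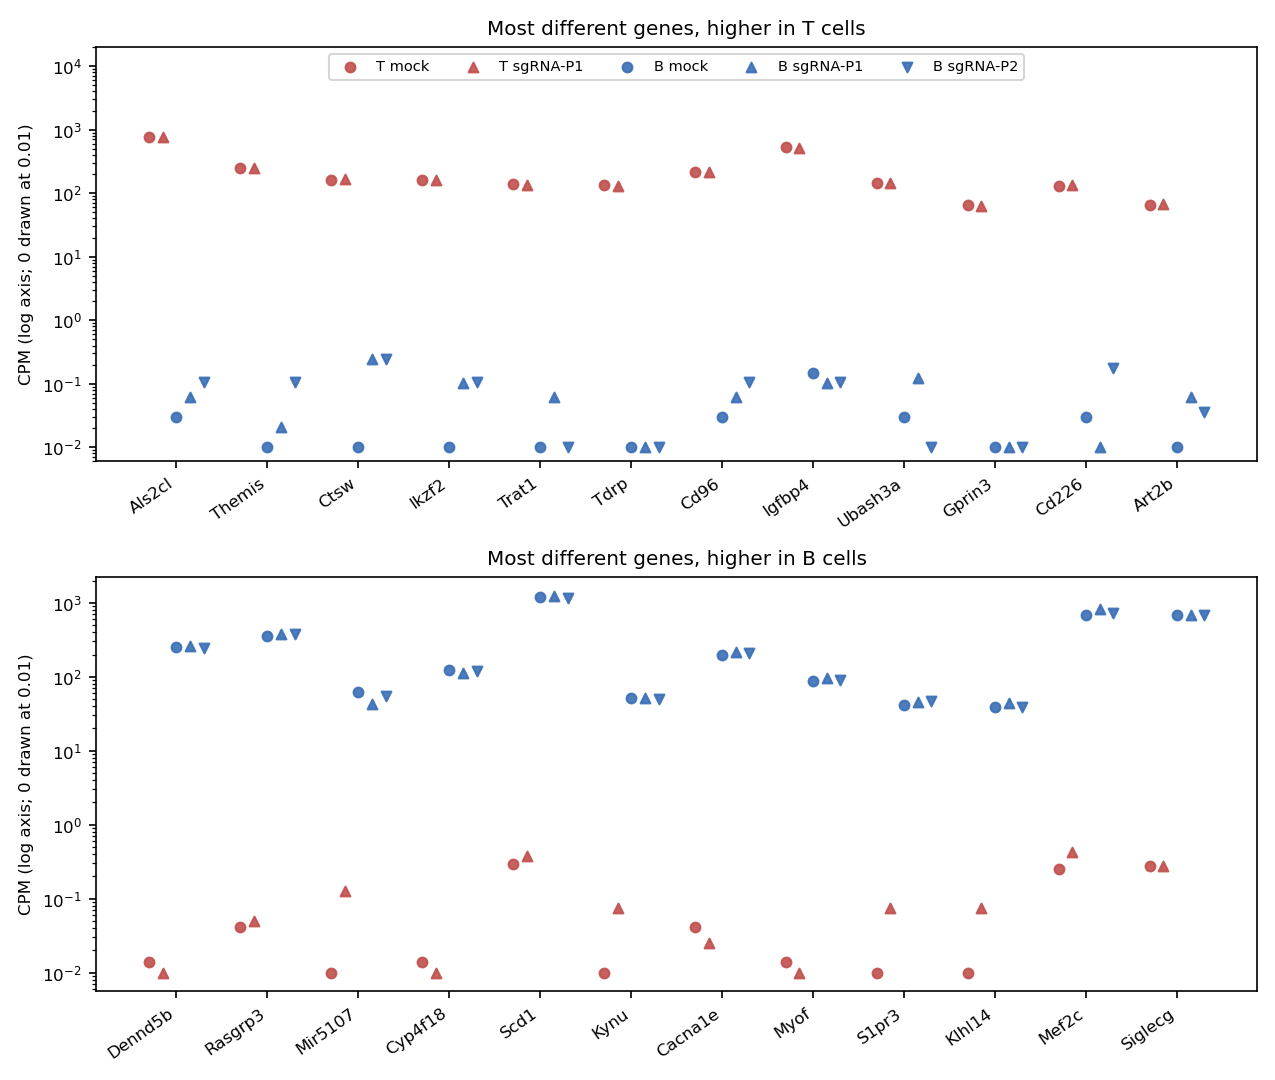
Levels in CPM (log axis, 0 drawn at 0.01) of the 12 genes most different towards T cells (upper panel) and the 12 most different towards B cells (lower panel) in each of the 5 libraries of the series. The T cell libraries (red) and the B cell libraries (blue) are separated by more than 100-fold for every gene shown.

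Related genes that serve the same step were compared as pairs, on levels per length (TPM, which also divides by gene length). Several steps of the signalling chain behind the antigen receptors showed a switch of partners, in pairs chosen with earlier results known. Zap70 and Syk, the kinases that bind the phosphorylated receptor, stood at 301 and 0.341 TPM in mock T cells and at 2.12 and 470 TPM in mock B cells, so that Zap70 made 99.9% of the pair in mock T cells and 0.448% in mock B cells. For the adaptors Lcp2 (SLP-76) and Blnk the share of Lcp2 was 99.98% in mock T cells and 0.416% in mock B cells. For the membrane adaptors Lat and Lat2 (Lat2 uncertain) the share of Lat was 99.7% and 1.27%. The values in guided cells were close to these, with Zap70 at 99.8% of its pair in T cells with sgRNA-P1, against 0.519% and 0.546% in B cells with sgRNA-P1 and sgRNA-P2.

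Other steps switched less completely. Lck made 99.9% of the Lck and Lyn pair in mock T cells and 12.96% in mock B cells, where Lck stood at 54.4 TPM. In the same B cell library Tcf7, a T lineage factor, was at 1.62 TPM, against 2068 TPM in mock T cells. Which cells the Lck reads of the mock B library came from was not tested. Fyn made 94.2% of the Fyn and Blk pair in mock T cells and 6.01% in mock B cells. Plcg1 and Plcg2, the phospholipases that release inositol trisphosphate, gave a share of Plcg1 of 98.9% in mock T cells and 6.18% in mock B cells. Prkcq, the protein kinase C of the T cell synapse, was at 227 TPM in mock T cells and 0.216 TPM in mock B cells. Its partner Prkcb was present in both, at 55.7 TPM in mock T cells and 224 TPM in mock B cells. For Ras activation, Rasgrp1 was shared (356 and 191 TPM) and Rasgrp3 was near 0 in T cells (0.0257 and 209 TPM). Pik3ap1, the adaptor BCAP that links to phosphoinositide 3-kinase, was at 2.77 TPM in mock T cells and 273 TPM in mock B cells, whereas the regulatory subunit Pik3r1 differed less, at 70.8 and 45.5 TPM.

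Transcription factors and survival receptors held further switches. Bcl11b and Bcl11a, related zinc finger factors, gave a share of Bcl11b of 99.98% in mock T cells and 0.0142% in mock B cells. Il7r and Tnfrsf13c, the receptors for the survival cytokines IL-7 and BAFF, stood at 496 and 4.22 TPM in mock T cells and at 0.197 and 493 TPM in mock B cells. Notch1 made 67.9% of the Notch1 and Notch2 pair in mock T cells and 4.33% in mock B cells. Ets1 was abundant in both (980 and 582 TPM), while Spib, an Ets factor of the B lineage, was at 0.488 TPM in mock T cells and 782 TPM in mock B cells. Sla was shared (78.8 and 74.3 TPM), but its relative Sla2 was at 57.6 TPM in mock T cells and 1.02 TPM in mock B cells. Ubash3b was shared in the same way (20.4 and 18.5 TPM) beside Ubash3a at 46.2 and 0.00909 TPM.

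Other pairs changed less. Vav1, an exchange factor for small GTPases, made 94.0% of the Vav1 and Vav2 pair in mock T cells and 68.8% in mock B cells. Rac1 (uncertain) made 12.8% of the Rac1 and Rac2 pair in mock T cells and 11.7% in mock B cells. The inositol trisphosphate receptor Itpr3 made 84.0% and 82.1% of its pair with Itpr1, although both were lower in mock T cells. Rasa3 made 94.7% and 93.9% of its pair with Rasa2, and the Groucho corepressor Tle4 97.7% and 95.3% of its pair with Tle1. The diacylglycerol kinase Dgka made 99.99% of its pair with Dgkg in both, yet its own level was 1360 TPM in mock T cells and 224 TPM in mock B cells.

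**Figure D3:**
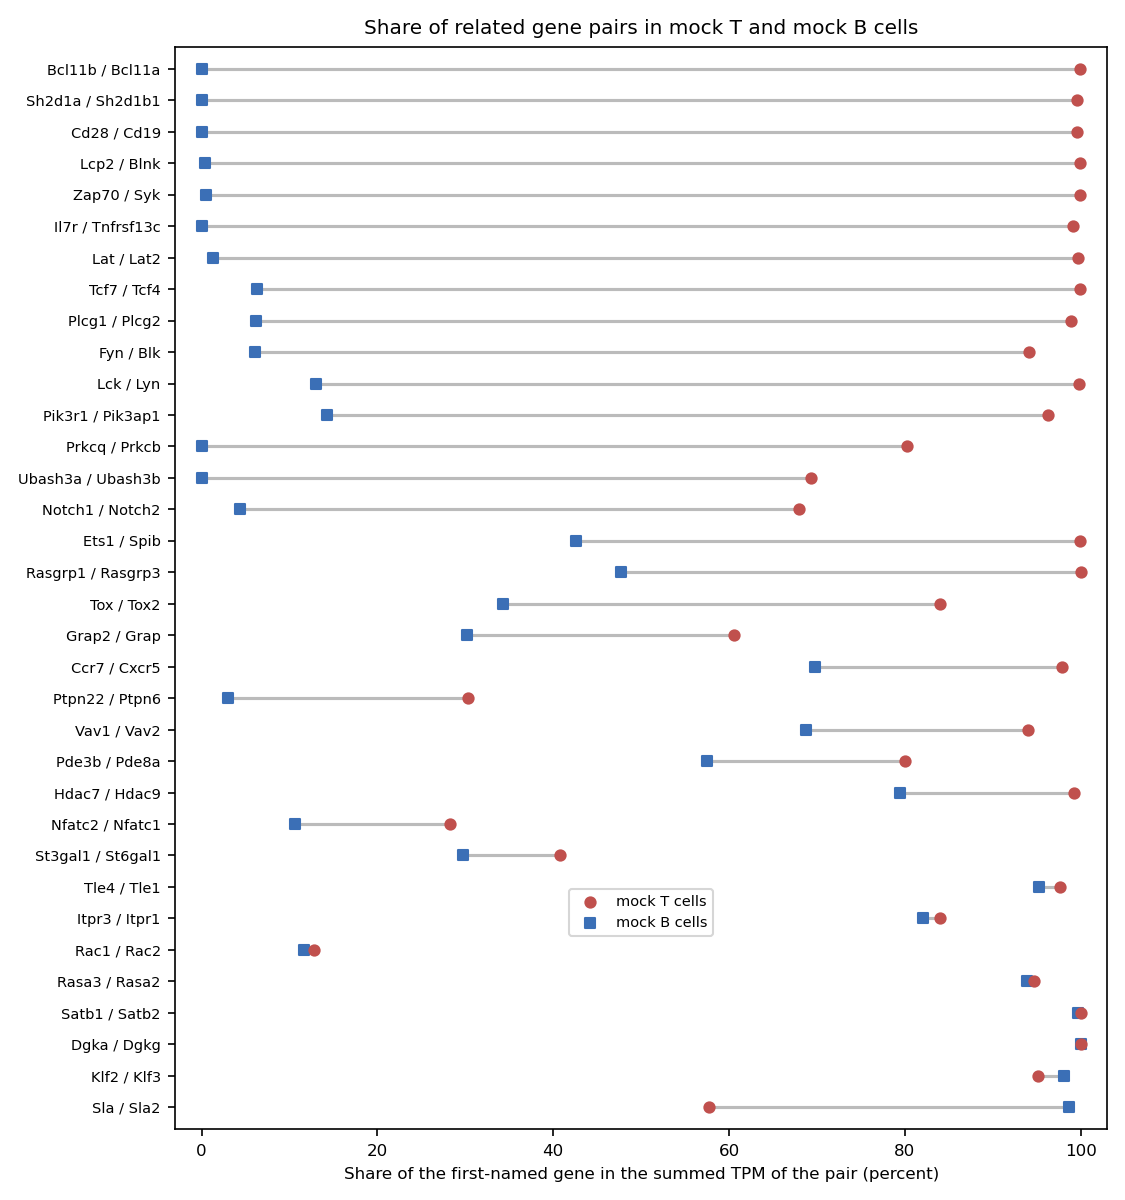
Share of the first-named gene in the summed TPM of each of 34 related gene pairs, in mock T cells (red circles) and mock B cells (blue squares). The uppermost pairs, such as Bcl11b and Bcl11a or Lcp2 and Blnk, run the whole width of the axis, and pairs lower down, such as Rac1 and Rac2, hardly part. In the last pair, Sla and Sla2, the share is lower in mock T cells.

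Of the 26 genes listed as T lineage transcription factors, 14 were higher in mock T cells and none in mock B cells, with a list median log2 difference of 1.15. The list was chosen for the T lineage, so a lean to T cells follows from that choice. Its sequence-specific factors included Gata3 (64.0 CPM in mock T cells and no read in mock B cells) and Foxp3 (97.2 and 0.148 CPM, uncertain), beside Ikzf2 above. Tcf7 and Lef1, which act with Wnt signals, stood at 1734 and 416 CPM in mock T cells, against 1.42 and 8.96 CPM in mock B cells. Other factors of the list were shared. Klf2, which keeps lymphocytes quiescent and recirculating, was at 1058 CPM in the mock T library and 1352 CPM in the mock B library, and Foxp1 at 298 and 504.2 CPM.

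Of 24 tested B lineage transcription factors, 17 were higher in mock B cells and 1 in mock T cells (median -2.27), in a list likewise chosen for its lineage. Mef2c, Bcl11a and Spib led, followed by Ciita, the coactivator of class II genes (0.749 CPM in the mock T library and 793 CPM in the mock B library), and Hhex (0.222 and 155 CPM). Spi1, which encodes PU.1, was at 0.139 CPM in the mock T library and 82.8 CPM in the mock B library. Klf3 was the member higher in mock T cells (331 and 157 CPM). Ikzf1, Foxo1 and Nfatc1 differed under 2-fold.

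The promoters of the differing genes were searched for short motifs in windows of 300 bases, from 250 bases before to 50 bases after the start of transcription, taken from RefSeq (GRCm38.p6). Windows were found by symbol for 8129 of the tested genes, among them 954 higher in mock T cells and 843 higher in mock B cells. The octamer ATGCAAAT, on either strand, is bound by POU factors such as the products of Pou2f1 and Pou2f2. It was present in a window of 1.36% of the genes higher in mock T cells, 3.91% of those higher in mock B cells and 1.61% of all 8129 genes. Read the other way, 131 genes had an octamer, of which 13 (9.92%) were higher in mock T cells and 33 (25.2%) in mock B cells, against 11.7% and 10.4% of all genes with a window. Examples are shown with 30 bases on each side of the octamer, which is in capitals and reads ATTTGCAT where it lies on the opposite strand. The first 5 belong to genes higher in mock B cells that are described here, and Orai1 is shown as a gene higher in mock T cells.
Blnk, chr19:40994314-40994381, minus strand: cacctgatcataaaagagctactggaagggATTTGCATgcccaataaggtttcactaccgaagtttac
Prkcb, chr7:122289025-122289092, plus strand: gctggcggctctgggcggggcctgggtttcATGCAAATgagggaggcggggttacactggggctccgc
Tlr9, chr9:106222496-106222563, plus strand: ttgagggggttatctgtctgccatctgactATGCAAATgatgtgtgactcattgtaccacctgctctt
Cnr2, chr4:135895111-135895178, plus strand: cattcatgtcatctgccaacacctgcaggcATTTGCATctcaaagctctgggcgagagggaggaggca
Hdac9, chr12:34528901-34528968, minus strand: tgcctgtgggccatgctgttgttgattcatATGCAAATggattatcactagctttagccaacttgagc
Orai1, chr5:123014954-123015021, plus strand: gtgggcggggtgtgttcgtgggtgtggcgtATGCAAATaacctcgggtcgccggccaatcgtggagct

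In these 6 windows the octamer began 48 to 130 bases before the start site. Prkcb stood at 118 CPM in the mock T library and 497 CPM in the mock B library, Cnr2 (a cannabinoid receptor of B cells) at 35.6 and 262 CPM, Hdac9 (a class IIa histone deacetylase) at 5.46 and 122 CPM and Orai1 (the pore of the store-operated calcium channel) at 27.8 and 11.1 CPM. The other motifs were searched in the same way. GAGGAAGT, read by Ets factors including PU.1, was in 5.66% of genes higher in mock T cells, 6.29% of those higher in mock B cells and 4.12% of all. The motif of Tcf and Lef factors, CTTTGAT, was in 3.14%, 2.49% and 2.87% of these sets. The Runx motif TGTGGTT was in 6.39%, 4.63% and 4.59%. A Gata motif, read as AGATAA, was in 9.64%, 8.90% and 7.70%. CAGGTG (E proteins) was in 26.5%, 24.9% and 20.2%, CCCNNGGG (a degenerate EBF core) in 26.6%, 24.9% and 20.9%, GGGACTTTC (NF-kB) in 0.314%, 0.830% and 0.480%, and GGGGCGGGG (the GC box) in 24.6%, 25.4% and 25.1%. A match describes the letters of the window and not a bound site. The 2 sets also differed from other genes in composition: windows held a median of 16 CpG dinucleotides for genes higher in mock T cells and 15.5 for genes higher in mock B cells, against 22 for genes that did not pass 2-fold.

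Cytokine receptors divided between the lineages. Of 29 tested, 9 were higher in mock T cells and 5 in mock B cells. Il7r was at 643 CPM in the mock T library and 0.266 CPM in the mock B library. Il18r1 (195 and 0.621 CPM), Il2rb (328 and 2.22 CPM) and Il2ra (113 and 3.90 CPM) are receptor chains for IL-18 and IL-2, and Tgfbr3 (81.3 and 0.0887 CPM) is a coreceptor for TGF-beta. In the other direction stood Il5ra (0.0971 CPM in the mock T library and 102 CPM in the mock B library), Csf2rb (0.0555 and 23.6 CPM), Lifr (0.0555 and 9.55 CPM), Il9r (20.1 and 136 CPM) and Il10ra (47.4 and 231 CPM). The shared chains Il2rg (666 and 387 CPM, uncertain), Il4ra (269 and 404 CPM) and Tgfbr2 (389 and 334 CPM) differed under 2-fold. Feedback inhibitors of these receptors also differed. Of the 8 tested SOCS genes 4 were higher in mock T cells, led by Cish (26.0 and 0.414 CPM) and Socs2 (10.97 and 1.21 CPM), and Socs5 was higher in mock B cells (22.3 and 48.0 CPM).

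Receptors that guide migration were similarly divided, with 8 of 24 higher in mock T cells and 6 in mock B cells. Ccr4 (23.5 and 0.0296 CPM), Ccr2 (34.98 and 0.503 CPM), Cxcr6 (41.7 and 1.77 CPM), Ccr9 (44.9 and 2.63 CPM) and Cxcr3 (29.5 and 1.98 CPM), receptors used by T cells on their way to inflamed or mucosal tissue, were higher in mock T cells. S1pr3, Ackr3 (0.250 CPM in the mock T library and 16.8 CPM in the mock B library), Cxcr5 (19.1 and 307 CPM), Ccr6 (3.20 and 14.6 CPM) and P2ry10b (24.3 and 68.0 CPM) were higher in mock B cells. Cxcr5 guides cells to the follicle. The receptors for lymphoid homing and exit were close: Ccr7 was at 510 CPM in the mock T library and 421 CPM in the mock B library, and S1pr1 at 644 and 389 CPM. Among adhesion genes 12 of 26 were higher in mock T cells and 3 in mock B cells. Itgae (163 and 0.798 CPM), Itgb8 (7.60 and 0.0296 CPM) and Selplg, the selectin ligand PSGL-1 (456 and 51.5 CPM), were among the first group, and Alcam (5.602 and 50.6 CPM) and Cd81 (15.3 and 94.5 CPM) among the second. Itga4 (695 and 551 CPM) and Cd53 (603 and 609 CPM) differed under 2-fold.

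The tumour necrosis factor (TNF) system was one of the most divided. All 17 tested TNF receptor genes differed 2-fold or more, 12 towards mock T cells and 5 towards mock B cells. Tnfrsf9 (4-1BB) had 33.9 CPM in mock T cells and no read in mock B cells, Tnfrsf25 had 70.3 and 0.0887 CPM, and Tnfrsf1a, a receptor for TNF itself, 43.9 and 0.0887 CPM. Cd27 and Tnfrsf4 (OX40), which costimulate T cells, had 224 and 35.6 CPM in mock T cells, against 9.40 and 4.35 CPM in mock B cells. Towards B cells stood Cd40, the receptor for T cell help, with 0.153 and 0 CPM in the mock and sgRNA-P1 T cell libraries, against 132, 122 and 134 CPM in the mock, sgRNA-P1 and sgRNA-P2 B cell libraries. Tnfrsf13c (2.40 and 292 CPM) and Tnfrsf13b (37.3 and 311 CPM) are the receptors BAFF-R and TACI, and Ngfr had no read in mock T cells, against 10.1 CPM in mock B cells. Tnfrsf21 was at 0.652 and 7.72 CPM.

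Of the 9 tested TNF ligands, 7 were higher in mock T cells and none in mock B cells. Their median log2 difference was 7.10, or 6.64 with the genes that had no read in mock B cells set at their bound. The median depended on which members passed the level filter, and was 1.62 with a filter of 20 CPM and 1.18 with none. Cd40lg, which engages CD40, was at 72.2 and 70.1 CPM in the mock and sgRNA-P1 T cell libraries, against 0.0296, 0.0623 and 0.0356 CPM in the mock, sgRNA-P1 and sgRNA-P2 B cell libraries. Tnfsf8 (80.0 and 0.148 CPM) and Tnfsf11 (16.2 and 0.0887 CPM) followed, and Tnfsf14 and Fasl had 8.92 and 8.83 CPM in mock T cells and no read in mock B cells. Tnfsf10 (52.0 and 12.4 CPM) and Tnf (23.2 and 10.2 CPM) differed less. The lymphotoxins were shared, with Ltb at 497 CPM in the mock T library and 455 CPM in the mock B library, and Lta at 25.7 and 30.9 CPM.

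Costimulatory and inhibitory receptors also went both ways, with 15 of 31 higher in mock T cells and 10 in mock B cells. Besides Cd96 and Cd226, Icos (104 and 0.0296 CPM), Sh2d1a (37.7 CPM and no read, uncertain) and Crtam (35.8 and 0.325 CPM) were higher in mock T cells. Icosl, the ligand of ICOS, was at 9.82 CPM in the mock T library and 517 CPM in the mock B library. Cd83 was at 13.6 and 360 CPM and Btla, an inhibitory receptor, at 202 and 1145 CPM. The SLAM-family receptors Slamf6 (277 and 211 CPM), Cd84 (225 and 178 CPM) and Ly9 (185 and 188 CPM) were the most abundant members under 2-fold.

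Toll-like receptor genes leaned to B cells and cytosolic sensors did not. Of 24 tested Toll-like receptors and partners, 15 were higher in mock B cells and 1, Tlr12 (12.6 and 5.41 CPM), in mock T cells (median -2.30). Cd180 and Ly86, which form a receptor complex that modulates responses to lipopolysaccharide in B cells, had 0.139 and 0.153 CPM in mock T cells, against 355 and 129 CPM in mock B cells. Tlr9, the receptor for unmethylated DNA, had 0.319 and 0.225 CPM in the mock and sgRNA-P1 T cell libraries, against 111, 114 and 113 CPM in the mock, sgRNA-P1 and sgRNA-P2 B cell libraries. Unc93b1, the chaperone that carries nucleic acid receptors to endosomes, was at 12.6 CPM in the mock T library and 798 CPM in the mock B library, and Tlr3 at 0.194 and 15.7 CPM. The most abundant members under 2-fold were Irak1 (146 and 176 CPM), Hsp90b1 (195 and 296 CPM) and Tlr1 (141 and 248 CPM). Cytosolic sensors were mixed, with 6 of 18 higher in mock T cells and 4 in mock B cells. Nlrc5, an activator of class I genes (659 and 222 CPM), Nlrc3 (233 and 67.7 CPM) and Ifih1, a sensor of double-stranded RNA (48.2 and 6.89 CPM), were higher in mock T cells, Casp1 (14.03 and 79.7 CPM) and Aim2 (57.9 and 129 CPM) in mock B cells, and Sting1 (135 and 131 CPM) in neither.

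Receptors for antibody and complement had the lowest median of the 41 programme lists at the filter of 5 CPM. None of 11 tested genes was higher in mock T cells and 10 were higher in mock B cells (median -6.61). With no filter the median was -4.84, against -5.81 for the list of genes shared with myeloid cells described below. Fcmr, the receptor for IgM, was at 0.666 CPM in the mock T library and 874 CPM in the mock B library. Fcgr2b, the inhibitory receptor for IgG, was at 0.264 and 219 CPM, Fcrl5 at 0.0693 and 71.4 CPM, Fcrl1 at 4.38 and 429 CPM, and Fcamr at 0.0971 and 32.8 CPM. Pigr (0.0693 and 8.99 CPM), Cd93 (0.569 and 34.0 CPM) and Fcgrt (12.5 and 33.6 CPM) were also among the 10. Cd55 (105 and 834 CPM), a regulator of complement, and Cfp (11.3 and 36.7 CPM), a secreted complement activator, completed them. Both stand in the list without being complement receptors. Cr1l differed under 2-fold, at 92.6 and 122 CPM. A further list held genes that B cells share with myeloid cells, so a lean to B cells follows from how it was chosen. Of its 23 tested genes, none was higher in mock T cells and 19 were higher in mock B cells (median -5.06). They included Cybb (5.91 and 561 CPM) and Ncf1 (16.1 and 300 CPM), parts of the phagocyte NADPH oxidase, Cd36 (0.0277 and 72.6 CPM), a scavenger receptor, and the lymphoid marker Ly6d (0.485 and 404 CPM). Of the 16 monocyte and macrophage markers, Adgre1 (0.0416 and 5.35 CPM) was the 1 tested marker higher in mock B cells, Cd68 (6.79 and 7.15 CPM) was under 2-fold, and the others were below the level filter. The part of such cells in these differences was not tested.

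**Figure D4:**
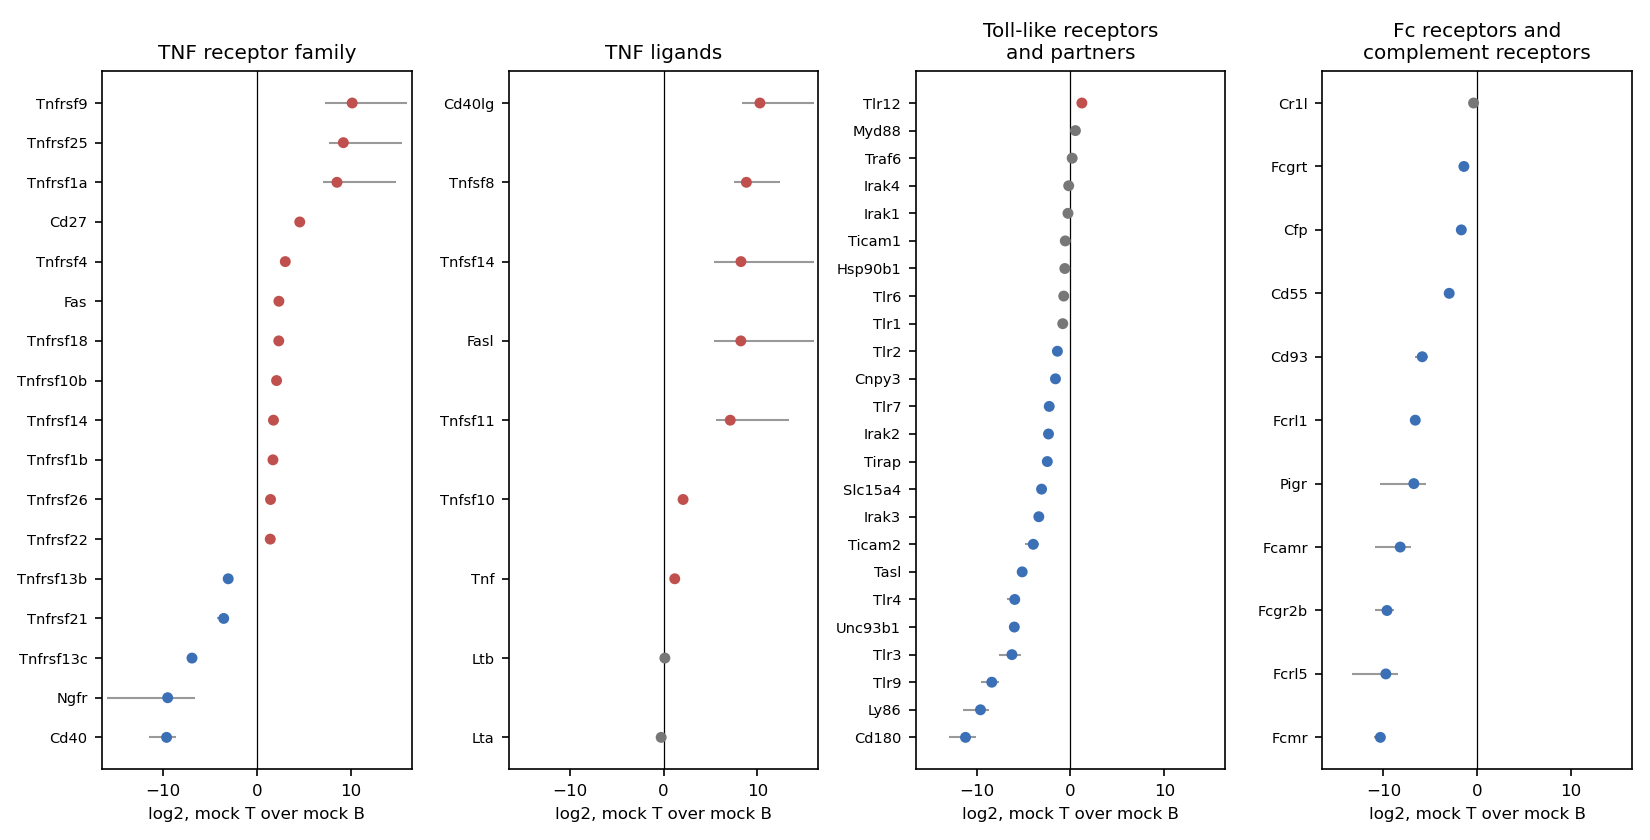
Log2 difference, mock T over mock B, of each tested member of 4 receptor and ligand lists, with 95% counting intervals as grey bars (cut at the axis limits where no upper or lower bound exists). Points right of 0 are higher in mock T cells, and grey points differ under 2-fold. Of the 9 TNF ligands Lta alone lies left of 0, and Ltb and Lta are drawn in grey, while members of the antibody and complement list lie to the left.

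Antigen presentation split by class. None of 22 tested genes was higher in mock T cells and 10 were higher in mock B cells. Class II genes and genes that act on class II made up the 5 most different members: H2-Eb1 (1.29 CPM in the mock T library and 2438 CPM in the mock B library), H2-DMb2 (0.957 and 812 CPM, uncertain), Marchf1, a ubiquitin ligase of class II (0.513 and 331 CPM), H2-DMb1 (0.458 and 231 CPM, uncertain) and H2-Ob (82.3 and 1938 CPM). Class I genes were expressed in both and lay under 2-fold, somewhat higher in mock T cells: H2-K1 at 3784 and 2316 CPM and B2m at 1853 and 1236 CPM. Lysosomal genes leaned to B cells, with 3 of 34 higher in mock T cells and 13 in mock B cells (median -0.43). Ctsh, a cathepsin, was at 0.416 CPM in the mock T library and 344 CPM in the mock B library, Plbd1 at 0.444 and 34.2 CPM and Ctsz at 29.7 and 185 CPM. Npc2, which moves cholesterol out of lysosomes, ran the other way (392 and 83.4 CPM), as did Ctsl (16.7 and 2.51 CPM, uncertain) and Ctsd (121 and 26.1 CPM, uncertain).

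Lipid genes held some of the widest single differences without a shift of the whole list. Of 34 fatty acid and phospholipid genes, 9 were higher in mock T cells and 7 in mock B cells. Beside Scd1 and Cd36 the B cell side held Plpp3 (0.0416 CPM in the mock T library and 13.01 CPM in the mock B library), Lpcat2 (0.222 and 20.3 CPM) and Apoe (9.75 and 203 CPM). The T cell side held Fads1 (15.4 and 1.51 CPM), Acacb (7.68 and 1.57 CPM) and Elovl6 (24.99 and 6.50 CPM), enzymes that desaturate, supply or lengthen fatty acids. Fasn (264 and 192 CPM) and Acly (296 and 264 CPM), at the root of the pathway, differed under 2-fold. Of 29 cholesterol genes 1 was higher in mock T cells and 1, the cholesterol exporter Abca1 (56.5 and 360 CPM), was higher in mock B cells.

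Genes that build and read sugar chains were among the most divided of the metabolic lists, with 10 of 35 higher in mock T cells and 11 in mock B cells. St8sia1, a sialyltransferase that makes gangliosides, was at 169 CPM in the mock T library and 0.266 CPM in the mock B library, and the galectin Lgals1 at 60.6 and 6.09 CPM. B3gnt5, which starts lacto-series glycolipids, was at 27.7 CPM in the mock T library and 565 CPM in the mock B library. Hs3st3b1 (61.6 and 3.02 CPM) and Hs3st1 (0.0416 and 24.5 CPM), which both add sulphate to heparan chains, were each found mainly in one lineage. Gcnt1, a branching enzyme of O-glycans, was at 16.03 and 171 CPM.

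Central carbon metabolism held single genes that differed, while its list medians shifted little. Of 30 genes of glycolysis and the pentose phosphate route, 7 were higher in mock T cells and 4 in mock B cells (list median -0.04.) Ldhb had 28.8 CPM in mock T cells and no read in mock B cells (uncertain). Hk1 was at 146 CPM in the mock T library and 56.6 CPM in the mock B library and Hk2 at 3.52 and 13.2 CPM. Slc2a6, a glucose transporter, was at 0.513 and 17.6 CPM, and Pdk1, which restrains pyruvate oxidation, at 320 and 73.3 CPM. Only 3 of 34 genes of the citrate cycle and mitochondrial metabolism passed 2-fold, namely Idh2 (48.8 and 22.1 CPM) and Ppargc1b (17.5 and 8.16 CPM) towards mock T cells and Fh1 (31.7 and 81.0 CPM) towards mock B cells. Of 28 amino acid and one-carbon genes, 3 (10.7%) were higher in mock T cells, among them Mthfd2 (44.1 and 9.58 CPM) and the transporter Slc7a5 (63.0 and 24.5 CPM). In mock B cells 2 (7.1%) were higher, Kynu and Slc7a7 (0.846 and 5.29 CPM). Both shares were below those of all tested genes. Of 31 redox genes, 5 were higher in mock T cells, led by Selenop (207 and 28.2 CPM) and Gsr (28.5 and 4.46 CPM), and 6 in mock B cells, among them Ncf4 (68.9 and 179 CPM), an oxidase subunit, and Gstm1 (1.97 and 6.41 CPM, uncertain).

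Ion channels were unlike between the lineages, with 11 of 34 genes of calcium and ion transport higher in mock T cells and 8 in mock B cells. The potassium channels Kcnh2 (21.96 CPM in mock T cells and no read in mock B cells), Kcna2 (48.8 and 0.148 CPM) and Kcnn4 (223 and 12.5 CPM), the calcium pump Atp2b4 (51.0 and 0.0887 CPM) and the channel subunit Cacnb3 (6.37 and 0.0296 CPM) were higher in mock T cells. Beside Cacna1e, the muscle-type sodium channel gene Scn4a (0.541 CPM in the mock T library and 77.8 CPM in the mock B library), the ryanodine receptor Ryr1 (1.997 and 14.7 CPM), Kcnq5 (4.24 and 27.2 CPM) and the proton channel Hvcn1 (27.9 and 259 CPM, uncertain) were higher in mock B cells. Atp2a3, the calcium pump of the endoplasmic reticulum, was abundant in both (562 and 1091 CPM).

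Phosphoinositide genes had 10 of 27 members higher in mock T cells and 4 in mock B cells. Inpp4b (725 and 50.5 CPM), a phosphatase of these lipids, Dgka (1799 and 308 CPM) and Pik3r5 (245 and 35.5 CPM) were higher in mock T cells, and Pik3ap1 (4.29 and 440 CPM) and Inpp5d, the phosphatase SHIP1 (172 and 351 CPM), in mock B cells. Among MAP kinase and Ras regulators, 6 of 30 were higher in mock T cells and 7 in mock B cells. Dusp5 (66.1 and 14.5 CPM) and Dusp10 (62.6 and 16.4 CPM) were on the T cell side, Dusp4 (22.8 and 58.9 CPM), Map3k8 (17.6 and 72.2 CPM) and Map4k1 (150 and 438 CPM) on the B cell side. Cyclic AMP genes gave 9 and 7 of 31, with Adcy6 (123 and 4.38 CPM) and Pde4d (66.2 and 15.6 CPM) towards T cells and Pde4a (1.33 and 18.3 CPM) towards B cells. Of 10 regulators of G protein signalling, 4 were higher in mock T cells and 2 in mock B cells, with Rgs16 (14.5 and 0.207 CPM) and Rgs10 (99.0 and 8.66 CPM) higher in mock T cells and Rgs18 (0.0139 and 11.7 CPM) and Rgs2 (112 and 380 CPM) higher in mock B cells.

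Of 47 cytoskeleton genes, 7 were higher in mock T cells, 6 in mock B cells and 34 in neither, shares close to those of all tested genes. Actn1, an actin crosslinker, was at 466 CPM in the mock T library and 9.81 CPM in the mock B library, and S100a6 at 24.9 and 1.51 CPM. The class I myosins Myo1e (9.89 and 283 CPM) and Myo1c (24.5 and 533 CPM) were higher in mock B cells. Myh9 (2452 and 1442 CPM), Flna (2174 and 1288 CPM) and Coro1a (1632 and 1515 CPM), the most abundant members, differed under 2-fold. Semaphorins and their plexin receptors were divided almost without remainder, as 4 of 11 were higher in mock T cells and 5 in mock B cells. Sema4f (49.8 CPM and no read) and Sema4a (218 and 1.86 CPM) stood on the T cell side, Plxnb2 (1.18 and 26.7 CPM), Sema7a (2.87 and 28.9 CPM) and Plxnc1 (36.4 and 148 CPM) on the B cell side.

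Genes of T cell subsets were nearly all higher in mock T cells, 26 of 28 tested, with a median of 5.88. The list held genes known from T cells, so a lean to T cells follows from how it was chosen. Regulatory T cell genes were represented by Ikzf2 and Foxp3 (uncertain), and cytotoxic or effector genes by Ctsw, Nkg7 (63.0 and 0.0887 CPM) and Il17a (8.97 CPM and no read). The NK markers that passed the level filter overlap this list, and the part of NK cells in these values was not tested. Capg, an actin-capping protein, was the exception (65.9 CPM in the mock T library and 227 CPM in the mock B library), and Cd44, a marker of memory cells, differed under 2-fold (83.7 and 61.1 CPM). Of 22 tested genes in a list chosen for marginal zone, follicular and B1 cells, 11 were higher in mock B cells and 5 in mock T cells. Cr2 (0.749 and 1314 CPM) and Fcer2a (0.347 and 1041 CPM), the complement and IgE receptors of marginal zone and follicular cells, led in level. The members higher in mock T cells were Ctla4 (172 and 5.38 CPM), Spn (578 and 26.7 CPM), Rundc3b (26.0 and 2.57 CPM), Cd9 (35.4 and 11.7 CPM) and Tbx21 (11.7 and 5.35 CPM), of which Ctla4, Spn and Tbx21 are also known from T cells.

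Interferon-stimulated genes leaned to T cells, with 18 of 47 higher in mock T cells and 2 in mock B cells, a median log2 difference of 0.63, and 10 members marked uncertain. The larger differences lay with interferon-induced GTPases and related genes, such as Iigp1 (46.7 CPM in the mock T library and 0.916 CPM in the mock B library), Gbp6 (45.0 and 3.75 CPM, uncertain) and Ifit1 (26.6 and 3.05 CPM). Ly6e (543 and 1467 CPM) and Gbp3 (38.7 and 84.2 CPM) were higher in mock B cells, and the abundant Samhd1 (625 and 739 CPM) and Ifi203 (461 and 630 CPM) differed under 2-fold. Of the 8 GIMAP GTPases, which support lymphocyte survival, 2 passed 2-fold, a share close to that of all tested genes. Gimap3 (1299 and 417 CPM) and Gimap4 (619 and 267 CPM) were higher in mock T cells. The other members differed under 2-fold, namely Gimap6 (1066 and 1088 CPM), Gimap8 (545 and 469 CPM), Gimap9 (136 and 76.4 CPM), Gimap1 (128 and 151 CPM, uncertain), Gimap5 (88.7 and 104 CPM) and Gimap7 (43.0 and 44.5 CPM).

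Immediate early genes, which respond to stimulation within minutes, had 4 of 30 members higher in mock T cells and 9 in mock B cells. Egr1 was at 113 and 108 CPM in the mock and sgRNA-P1 T cell libraries, against 535, 550 and 555 CPM in the mock, sgRNA-P1 and sgRNA-P2 B cell libraries. Egr3 (36.4 and 241 CPM), Klf4 (46.2 and 196 CPM) and Atf3 (3.16 and 33.2 CPM) were also higher in mock B cells. Fosl2 (29.6 and 0.621 CPM), Nr4a3 (29.4 and 2.22 CPM), Tnfaip3, the NF-kB inhibitor A20 (1196 and 216 CPM), and Zfp36l2 (1083 and 390 CPM) were higher in mock T cells. Fos (1401 and 2186 CPM) and Junb (1285 and 1066 CPM) were abundant in both. Of 38 regulators of NF-kB and NFAT, 29 differed under 2-fold. The shares higher in mock T cells (10.5%) and in mock B cells (13.2%) were close to those of all tested genes. Ikbke (484 and 24.98 CPM), Rcan3 (70.3 and 8.54 CPM), Traf1 (195 and 46.1 CPM) and Peli1 (401 and 120 CPM) were higher in mock T cells, and the precursor Nfkb2 (84.2 and 266 CPM), the inhibitors Nfkbie (40.9 and 143 CPM) and Nfkbid (93.9 and 279 CPM), Malt1 (212 and 481 CPM) and the calcineurin subunit Ppp3ca (58.1 and 276 CPM) in mock B cells.

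The balance of death regulators differed by member, with 3 of 33 higher in mock T cells and 10 in mock B cells. Bcl2l1, the anti-apoptotic BCL-XL (22.5 and 4.73 CPM), and the pro-apoptotic Bbc3, PUMA (24.9 and 4.67 CPM), were higher in mock T cells. The pro-apoptotic Bmf (1.29 and 44.6 CPM) and Pmaip1, NOXA (13.9 and 79.7 CPM), were higher in mock B cells. Bcl2 (289 and 176 CPM) and Mcl1 (595 and 930 CPM), the most abundant guardians, differed under 2-fold. Of 27 cell cycle genes, 4 (14.8%, close to the share of all tested genes) were higher in mock T cells and 2 (7.4%) in mock B cells. Among them, the D-type cyclin Ccnd2 stood at 400 CPM in the mock T library and 94.4 CPM in the mock B library and Ccnd3 at 169 and 54.2 CPM. The other 4 were Rrm2 at 8.86 and 4.26 CPM, Tyms at 5.87 and 2.66 CPM, E2f2 at 40.2 and 88.9 CPM and Aurkb at 1.30 and 6.41 CPM.

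Developmental signalling genes gave 8 of 30 members higher in mock T cells and 2 in mock B cells. Axin2, a target of Wnt signalling, was at 68.0 CPM in the mock T library and 0.0887 CPM in the mock B library, and Lfng, which modifies Notch receptors, at 233 and 42.7 CPM. Hes1, a target of Notch signalling, was at 0.361 CPM in the mock T library and 43.6 CPM in the mock B library, beside Notch2 at 103.2 and 567 CPM. Of 42 chromatin genes, 5 (11.9%) were higher in mock T cells and 1, Hdac9 (2.4%), in mock B cells. Neither share exceeded that of all tested genes. Tet1 (50.2 and 9.19 CPM), which oxidises methylcytosine, and Chd3 (1242 and 379 CPM) were among the 5. Of 30 genes of the endoplasmic reticulum and secretion, Syvn1 (52.8 and 278 CPM), Atf6 (29.2 and 153 CPM) and Pdia4 (86.7 and 314 CPM) were higher in mock B cells and Dnajc3 (189 and 85.3 CPM) in mock T cells, while Hspa5, the chaperone BiP, was near equal (559 and 640 CPM).

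None of 45 tested proteasome subunits, 23 nuclear genes of oxidative phosphorylation or 26 cytosolic ribosomal proteins passed 2-fold in either direction, and 2 of 78 mitochondrial ribosomal proteins did, both towards mock T cells. All 26 ribosomal proteins lay above 0, with a median log2 difference of 0.37, but 16 of them are uncertain because they share sequence with other gene copies. Mitochondrially encoded messages had a median of 0.01 between the mock libraries. It was -0.78 between the sgRNA-P1 libraries. The message mt-Nd1 was at 2629 and 2441 CPM in the mock and sgRNA-P1 T cell libraries, against 3106, 4794 and 3382 CPM in the mock, sgRNA-P1 and sgRNA-P2 B cell libraries. Zinc finger genes named Zfp, the largest family counted, had 18 of 279 members higher in mock T cells and 21 in mock B cells. Solute carriers had 29 and 26 of 167, including Slc12a7 (464 and 18.5 CPM) towards T cells and Slc41a2 (0.180 and 20.01 CPM) towards B cells.

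**Figure D5:**
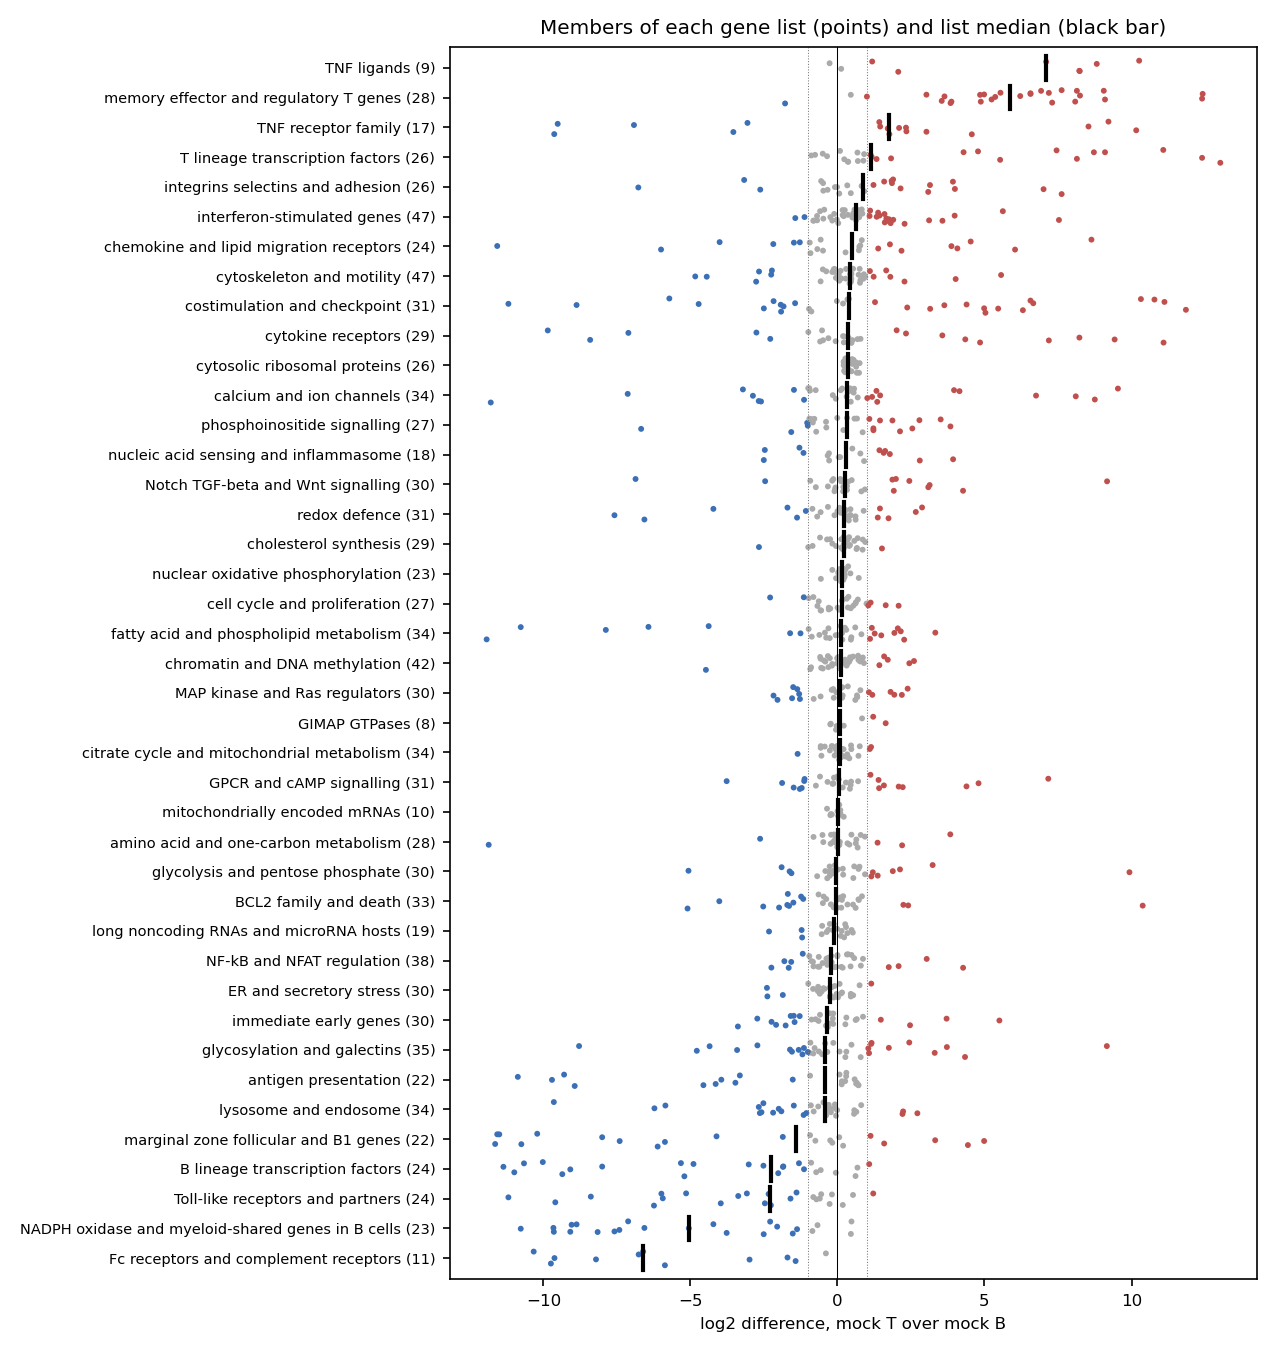
Log2 difference, mock T over mock B, of the tested members of 41 gene lists, with the number of members in brackets, red and blue for 2-fold or more towards T and B cells, and the list median as a black bar. Genes without a read in one library are placed by a prior of 1 read. Lists at the top, such as TNF ligands, and at the bottom, such as Fc and complement receptors, lie to one side, while most lists in between have medians near 0 with members far out on both sides.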

How the data were processed

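Poly(A) RNA of spleen T and B cells was sequenced. The authors deposited whole-number read counts per gene for 56893 genes, made with HISAT2 and featureCounts, with hg38 and mm39 named, per the submitters' processing notes. The sources used here do not give versions, annotation, strand setting or the treatment of multiply mapping reads. Paired columns of a group matched more closely than sampling noise allows (mean chi-square per gene of 0.00231 to 0.00283) and were summed and used as 1 sample. The planned test on replicates was therefore not used, and a size rule replaced it. All members, lists, pairs and motifs were chosen with earlier results of these data known.

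Counts were scaled by TMM over the 5 libraries (edgeR 4.0.16, R 4.3.3), with factors of 0.982 to 1.01. CPM and TPM were computed here from the deposited counts, TPM with the deposited gene lengths. Log2 differences used a prior of 1 read. Of low totals, 72.6% (T) and 72.7% (B) were even, as counting both reads of a pair gives, so exact conditional 95% intervals used reads divided by 2. Floors were 3 reads, which is 0.0416 CPM in the mock T library and 0.0887 CPM in the mock B library. Floors were not divided by 2 and are less strict than the intervals. Libraries carry no molecular identifiers, so intervals and floors cover counting error at most. The script was tested on simulated data, which checks its arithmetic and not differences between libraries.

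A gene is called uncertain where 25% or more of its 31-mers occur in other genes' transcripts (GENCODE M21; counted for list and pair members and for the more abundant genes), or 25% or more of its exon length is overlapped by another gene at least as highly expressed. In total 729 tested genes are so marked. Named genes are the 12 most different per direction at 20 CPM or more, up to 5 past 2-fold per direction and 3 abundant members under 2-fold in each list, all members of short lists, leading markers of other cell types, and all pairs. Some genes the rule takes are not reported here. Lef1, Kmo, Cnr2, Orai1, Ncr1, Klra8, Csf1r, Sdc1, Cd74, Cd55, Cd93, Cfp, Fcgrt, Fcrl1, Tnf and Tnfsf10 were named outside this rule after their values were seen.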

Additional observations from a re-analysis of the deposited data

How the results depend on the processing

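Counts of genes past 2-fold (1332 higher in mock T cells and 1319 higher in mock B cells) followed the thresholds. They were 2141 and 2069 with a filter of 1 CPM, 801 and 796 with one of 20 CPM, and 4680 and 5378 with no filter. With a fold of 1.5 they were 2014 and 1983, and with a fold of 4 they were 767 and 802. Other scalings, a prior of 5 reads, subtraction of a GC and length trend, the sgRNA-P1 libraries in place of the mock ones and a model over the 5 libraries (edgeR's quasi-likelihood test with Benjamini-Hochberg adjustment, 2 residual degrees of freedom) kept both counts within 1.5 times. The model took sgRNA-P1 and sgRNA-P2 as the same condition, and its libraries need not come from different animals. It is therefore not a replicate check. Without uncertain genes, an alternative chosen after seeing the data, they were 1281 and 1225. Using 1 column of each group gave 1336 to 1351 and 1295 to 1309, which repeats the same library. Of 45 list medians, 35 kept their sign under all alternatives run. The other 10 had sizes of at most 0.32, phosphoinositide signalling being the largest, which was -0.05 after the GC and length trend was subtracted. List medians of size over 0.3 that moved by more than 1.5 times with the filter were TNF ligands (4.58, 1.62 and 1.18 with filters of 1 CPM, 20 CPM and none), antigen presentation (-0.93 with none), chemokine receptors (0.28 with 20 CPM), costimulation (0.83 with 1 CPM), glycosylation (-0.14 with 20 CPM and -0.24 with 1 CPM) and marginal zone and follicular genes (-2.98 with 20 CPM). Between the sgRNA-P1 libraries the medians were 0.59 for ribosomal proteins and -0.25 for antigen presentation, and antigen presentation was at -0.22 after the GC and length trend was subtracted. Of the 90 genes followed under the alternatives, which were the extremes and the members of pairs, none past 2-fold changed direction. No paired analysis was possible because the columns with the same number are parts of divided libraries and each group holds 1 library. With 1 library per group, differences between animals or cultures cannot be seen.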
